A study of Mus musculus with 9 samples.

Results

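The amino acid transporter families examined here are the Slc1, Slc3, Slc6, Slc7, Slc36, Slc38 and Slc43 families. Their members were chosen by gene symbol alone, as every non-control probe whose gene name is one of these family names followed by the letter a and a number. This gave 95 probes of 55 genes among the 41174 probes and 27962 gene names of the array. The Slc6 family had 29 probes of 19 genes, Slc7 had 23 probes of 15 genes, Slc38 had 14 probes of 5 genes and Slc1 had 13 probes of 7 genes. Slc36 had 9 probes of 4 genes, Slc43 had 4 probes of 3 genes and Slc3 had 3 probes of 2 genes. Slc38a6 to Slc38a11 and Slc6a21 had no probe under those names and were not analysed here.

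RNA came from mammary gland number 4 of 4 wild type (WT) dams and 5 hNAG-1 transgenic dams on lactation day 2, with 1 Cy3-labeled array for each mouse. For the RNA the paper refers to its gene expression section, where glands were taken after the fourth litter of a breeding study. It does not state the litter again for the array dams. The labels give the strain background of both genotypes as C57BL/7. The transgene is described as ubiquitous expression of human NAG-1, a secreted member of the TGF-beta superfamily also named GDF15, and its promoter and the transgenic line of these 5 dams are not given in the sources used here. The study worked mainly with a single line and combined both of its lines in some experiments. The arrays were designed for mouse genes, and the human transgene was not checked here. Each gland was a whole tissue with epithelium, fat, vessels and possibly a lymph node, so that fewer cells of a type and less RNA per cell cannot be told apart in any value below.

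A lactating gland draws free amino acids from the blood, and transporters in the basolateral membrane of the alveolar cells supply the synthesis of milk protein. The light chains of Slc7 form pairs with a heavy chain of Slc3 and mostly exchange one amino acid for another, while the cationic amino acid transporters of Slc7 work without one. Slc1 and Slc38 members carry amino acids with sodium, Slc36 members carry them with protons, Slc43 members let them pass down their gradient, and Slc6 members carry amino acids and related compounds such as taurine, creatine and GABA with sodium and chloride. Several of these genes are known targets of the amino acid response, in which the factor ATF4 binds a response element when amino acids are short.

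Each deposited intensity was scaled to its array's 75th percentile, and the values below are scaled intensities, in the order WT 1 to WT 4 and hNAG-1 1 to hNAG-1 5. The unscaled percentile lay between 533 and 1185. The arrays lay on 3 slides, with WT 1 on slide 1, hNAG-1 1 to 4 on slide 2, and WT 2 to 4 with hNAG-1 5 on slide 3. Of the 95 transporter probes, 64, 74, 66 and 69 were well above background on the 4 WT arrays, and 66, 51, 62, 54 and 75 on the 5 hNAG-1 arrays. The 2 lowest counts were those of hNAG-1 2 and hNAG-1 4 on slide 2, and the highest was that of hNAG-1 5 on slide 3. Over all probes of the array, 59.7% and 59.1% were above background on hNAG-1 2 and hNAG-1 4, 72.9% on hNAG-1 5 and 75.6% on WT 2, the highest. None of the 95 probes was saturated on any array. The number of arrays limits the precision, and a probe's level says nothing about the level of another probe.

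Several of the genes are read by more than 1 probe, and those of Slc7a11, Slc38a1 and Slc36a2 are shown because 5 of the 10 members called below are among them. The first 30 of the 60 bases of the 4 Slc7a11 probes are shown with their mm7 positions, as the array's design gives them, all on the minus strand. No annotation of that build was used here, so exon, intron and UTR are not stated.
Slc7a11 A_52_P368057, chr3:50490342-50490401: agtaatgtatcaggagctttatgtaaatgt
Slc7a11 A_52_P663446, chr3:50490980-50491039: tgcaaccaaaattttaactaggttcttctt
Slc7a11 A_51_P129502, chr3:50496689-50496748: cctctagcgtattcaaattaatttttgagc
Slc7a11 A_52_P298824, chr3:50567425-50567484: aagggttatttctgtggagtaaatgaatgg
The last of them starts 70736 bases from its nearest neighbor, while the first pair start 638 bases apart.

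For Slc38a1, 5 of 6 probes lie within a short stretch of chromosome 15 and the other starts 63318 bases away from the nearest of them. These are a pair from the cluster and the distant probe, on the minus strand in mm7.
Slc38a1 A_51_P507053, chr15:96577437-96577496: tggaaacacgatcaacagttgtcttcactt
Slc38a1 A_51_P133005, chr15:96572703-96572762: tctagagtccagtgtgtcttagatccccat
Slc38a1 A_52_P190992, chr15:96640755-96640814: cagggtgctatttttctggttcttacaagt
Both probes of Slc36a2, 9861 bases apart on the minus strand of chromosome 11 in mm7, are these.
Slc36a2 A_51_P366672, chr11:55115389-55115448: gcaatgaacatcttctgttacctgtcgggc
Slc36a2 A_52_P639480, chr11:55125250-55125309: tcaagactagtggttgtacataattcagtg

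The 250 bases before the start of Slc7a11, the cystine and glutamate exchanger, are printed because this promoter held both motifs searched. They are RefSeq sequence of assembly GRCm38.p6 on the minus strand, with the matches in capitals.
Slc7a11, chr3:50443614-50443863: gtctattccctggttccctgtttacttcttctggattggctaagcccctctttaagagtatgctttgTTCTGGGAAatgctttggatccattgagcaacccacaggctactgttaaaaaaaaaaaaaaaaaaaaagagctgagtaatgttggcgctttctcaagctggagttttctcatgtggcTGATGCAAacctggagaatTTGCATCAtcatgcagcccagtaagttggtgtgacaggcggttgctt
The 9-base match is the STAT5 element TTCNNNGAA, and the pair of 8-base matches are the amino acid response element TGATGNAA, one on each strand. Over windows from 250 bases before to 50 after each start, 57 promoters of 36 member genes were found. The response element was in 4 of these 57 (Slc1a4, Slc7a7 and Slc7a11), which is 7.02%, against 3.97% of 32851 promoters, where overlapping windows of Slc7a7 share a match. By gene it was in 8.33% of 36, against 4.51%. The STAT5 element was in 3 of 57 (Slc1a3, Slc7a1 and Slc7a11), which is 5.26%, against 8.30% of all, and by gene in 8.33% against 9.55%. These matches on both strands are a description of letters only.

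No transporter passed the test after adjustment, and every member with an unadjusted p under 0.05 was read by a dim probe. Of the 95 probes, 48 were above background on all 9 arrays and 16 on none, and all of them are counted here. The log2 fold change of hNAG-1 over WT was above 0 for 42 and below 0 for 53 of the 95 probes, with a median of -0.12, beside a median of -0.02 over all probes. Scaling each array by its median moved these to 0.10 and 0.20, and no scaling to -0.27 and -0.16, which shifts every probe by 1 constant. The gap between both medians, -0.10, was -0.02 with normexp background correction, -0.03 with quantile normalization and -0.05 with slide as a block. No member had an adjusted p under 0.05 by limma, where 1 probe of the array did (0.00243%), and the lowest adjusted p of a member was 0.661. At an unadjusted p under 0.05, 10 members were called (10.5%), beside 5.60% of all probes. Of these, 9 were lower in hNAG-1 (9.47%, beside 4.45% of all probes) and 1 was higher (1.05%, beside 1.15%). The split was 6 higher and 6 lower with median scaling (6.48% and 2.47% of all probes), 5 and 5 with quantile normalization (3.66% and 2.70%) and 0 and 10 with no scaling (0.143% and 4.87%). The genotypes did not overlap for 1 member (1.05%, beside 1.35% of all probes). When the limits of the study's methods, at least 1.5-fold in size and at least 65 in intensity, were added to this p of limma, 4 members were called (4.21%) beside 2.25% of all probes, 1 each of Slc1a7, Slc6a13, Slc36a2 and Slc38a1. The Slc36a2 probe passed the intensity limit through hNAG-1 2 alone, in the genotype where it was higher, so its call here supports nothing. With a test of the kind the methods name, a linear model without limma's moderation of the variance, 0 members were called, beside 1.22% of all probes, and 5 members had an unadjusted p under 0.05, beside 4.82%. Single arrays moved both counts. Without WT 3, hNAG-1 2, hNAG-1 3 or hNAG-1 5, the first was 6, 4, 5 or 25, beside 3.95%, 2.82%, 3.66% or 14.4% of all probes. Without WT 2, WT 3, hNAG-1 1, hNAG-1 2, hNAG-1 3 or hNAG-1 5, the second was 2, 1, 7, 0, 2 or 10, beside 1.90%, 1.79%, 2.92%, 0.998%, 1.26% or 6.53%. Of the 10 called members, 3 kept an unadjusted p under 0.05 without any 1 of the arrays (Slc7a9, Slc7a11 A_52_P368057 and Slc36a4), 1 was above background on all 9 arrays, and 1 (Slc7a11 A_52_P663446) on none. With normexp background correction, the other 8 called lower lay between -0.47 and -0.065 and the 1 called higher was 0.44.

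**Figure D1:**
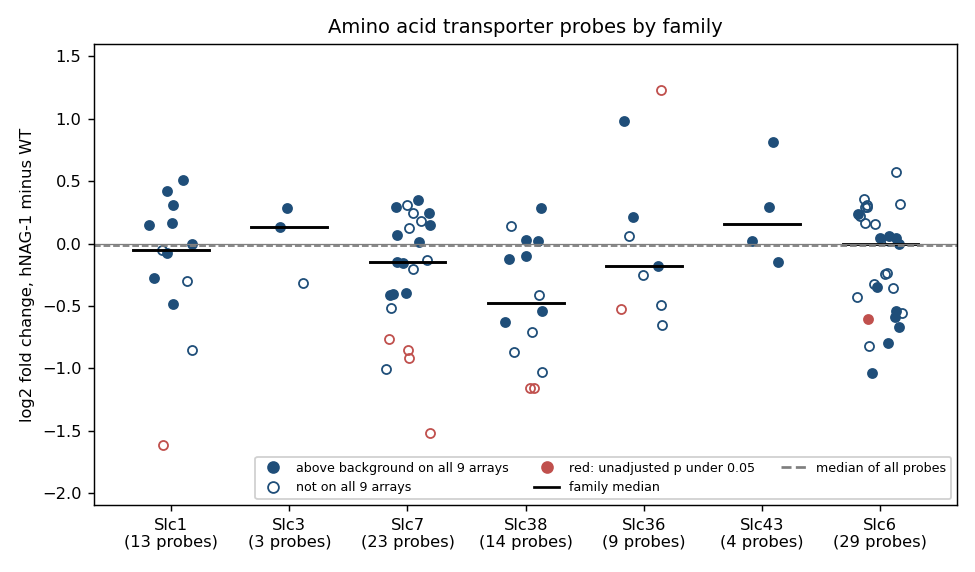
Log2 fold change of hNAG-1 minus WT (y axis) for the 95 transporter probes by family (x axis); filled points were above background on all 9 arrays, red points had an unadjusted p under 0.05, black lines are family medians and the dashed line is the median of all probes. Of the 10 red points, 9 lie below 0 and all but 1 are open.

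Most of the lower values were read by dim probes. Among the 58 members dimmer than the array's median probe, a scaled intensity of 88.1, 39 were below 0 (67.2%) with a median of -0.32, and all 10 called members were among them. Over all dim probes of the array, 58.6% were below 0 with a median of -0.13, and 7.74% were called. The 37 brighter members had a median of 0.05, with 14 below 0 and 0 called at an unadjusted p under 0.05, beside 3.46% of all bright probes.

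Slide moved with these differences. Since only slide 3 carried both genotypes, a fit with slide as a block gave the difference of hNAG-1 5 from WT 2, WT 3 and WT 4. In that fit 62 of the 95 members were above 0 with a median of 0.14, beside a median of 0.19 over all probes. The dim members had a median of 0.33, where all dim probes had 0.37. It called 4 members at an unadjusted p under 0.05 (4.21%, beside 7.61% of all probes), all higher in hNAG-1, and 0 of the 10 called without the block. The called probe of Slc36a4, named after its value was seen, was above background on all 9 arrays. Between both fits, 44 of the 95 members changed sign, among them 5 of the 10 called without the block. Values with slide as a block are given below for the called members that were above background on some array and for some of the others.

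**Figure D2:**
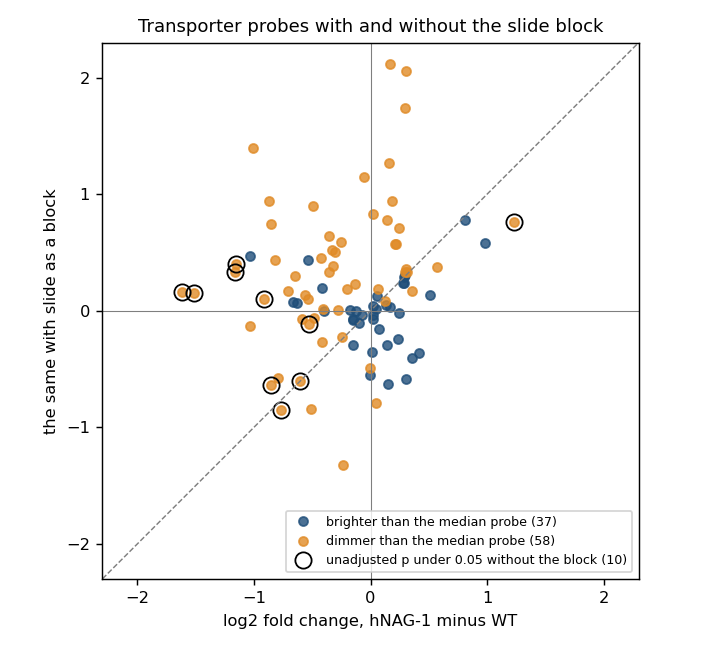
Log2 fold change of each transporter probe without a block (x axis) and with slide as a block (y axis), where the dashed line marks equal values and circles mark the 10 probes with an unadjusted p under 0.05 without the block. The dimmer probes lie mostly above the dashed line, and 5 of the circled probes change from below 0 to above 0.

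Slc3a2 and Slc7a5, the heavy chain CD98 and the light chain LAT1 that together exchange large neutral amino acids such as leucine, had overlapping genotypes and log2 fold changes within 2 SE of 0. Probe A_51_P472901 of Slc3a2 read 20595, 12589, 15313 and 19291 in WT and 15376, 22506, 19970, 18083 and 16023 in hNAG-1, which gave a log2 fold change of 0.13 ± 0.19 (SE) that was -0.0036 without WT 2. The other probe of Slc3a2, A_52_P245648, gave 0.28 ± 0.20 (0.22 without WT 2). The ranges of the genotypes overlapped for both. Slc7a5 read 4041, 2322, 4236 and 4431 in WT and 3553, 5076, 4513, 3025 and 2751 in hNAG-1. WT 2 stood below the other WT arrays, and the log2 fold change was 0.02 ± 0.26 (-0.36 with slide as a block). Slc7a8, the light chain LAT2, read 866 ± 299 (SD, n = 4) in WT against 1114 ± 447 (SD, n = 5) in hNAG-1, with a log2 fold change of 0.35 ± 0.34 that was -0.40 with slide as a block and 0.098 without WT 2. It was the highest value among Slc7 probes above background in all arrays of a genotype. Slc3a1, the other heavy chain, was above background on 2 WT arrays and 1 hNAG-1 array.

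**Figure D3:**
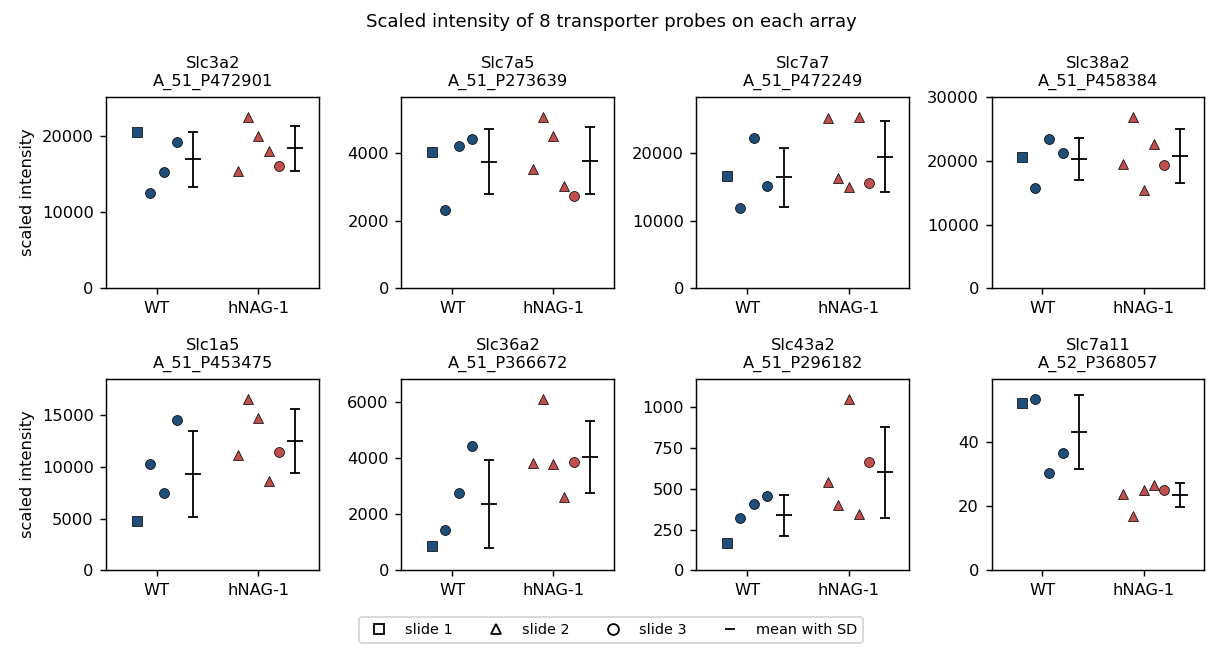
Scaled intensity (y axis, linear from 0) of 8 transporter probes in WT and hNAG-1 (x axis), with 1 point for each array, its shape marking the slide, and the mean with SD beside it. The genotypes overlap in 7 panels, and in the Slc7a11 panel the hNAG-1 arrays, at 16.9 to 26.7, lie below the lowest WT array at 30.4.

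The light chains that exchange cationic for neutral amino acids also had overlapping genotypes. Slc7a7, known as y+LAT1, read 16647, 11810, 22247 and 15070 in WT and 25233, 16305, 14951, 25300 and 15635 in hNAG-1. Its log2 fold change was 0.24 ± 0.25 and the ranges overlapped, with hNAG-1 1 and hNAG-1 4 above every WT array. The value was -0.02 with slide as a block and 0.09 without WT 2. Slc7a6, y+LAT2, had 2 probes above background on all arrays, with log2 fold changes of -0.15 ± 0.19 and 0.15 ± 0.21, while the other probe was above background on no array. Slc7a10, which carries small neutral amino acids and is known from fat, read 1710 ± 294 (SD, n = 4) in WT against 1816 ± 440 (SD, n = 5) in hNAG-1, with a log2 fold change of 0.07 ± 0.21. Of the cationic carriers, Slc7a1 had a log2 fold change of -0.42 ± 0.23 and read 147 ± 27.2 (SD, n = 4) against 112 ± 31.3 (SD, n = 5). With slide as a block it was 0.19. Slc7a2 had -0.15 ± 0.38.

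Slc7a11, which takes up cystine for glutathione synthesis, was lower in hNAG-1 for the first of the probes printed above, at intensities close to background. Probe A_52_P368057 read 52.4, 53.5, 30.4 and 36.7 in WT and 23.9, 16.9, 25.0, 26.7 and 25.1 in hNAG-1. It was the member whose genotypes did not overlap, with a log2 fold change of -0.86 ± 0.22 and an exact permutation p of 0.00794, the smallest that the design allows. Genotypes that do not overlap put this p at or near that floor, so it adds nothing to the non-overlap. The adjusted p of this probe by limma was 0.661. All 4 WT arrays and 2 of the 5 hNAG-1 arrays were well above background for it. Probe A_52_P298824, the distant one, read 14.4, 47.5, 13.1 and 22.2 in WT and 4.67, 5.84, 4.37, 6.88 and 26.6 in hNAG-1. Only WT 2 and hNAG-1 5 were above background for it, and the log2 fold change, -1.52 ± 0.58, became 0.15 with slide as a block, -0.27 with a floor of 20 and -0.21 with normexp. Without WT 2, WT 4, hNAG-1 1, hNAG-1 2 or hNAG-1 3, it lay between -1.49 and -1.13 and its unadjusted p was over 0.05. The other probes, A_52_P663446 and A_51_P129502, were not well above background on any array, so their values are not described further. A_52_P663446 is nonetheless 1 of the 9 members called lower, a call that was lost without WT 2, WT 4, hNAG-1 1 or hNAG-1 3. With slide as a block, A_52_P368057 had -0.64 with an unadjusted p of 0.145 by limma across all probes, and without any 1 of the 9 arrays it was between -1.01 and -0.74. It was -0.26 with normexp and -0.51 with quantile normalization.

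Slc7a9, a light chain known from kidney cystine uptake, read 52.2, 58.3, 49.4 and 62.1 in WT and 36.6, 21.3, 20.2, 22.7 and 60.5 in hNAG-1. The 4 hNAG-1 arrays of slide 2 were below every WT array and hNAG-1 5 of slide 3 was within the WT range. It was above background on 4 WT and 2 hNAG-1 arrays. The log2 fold change of -0.92 ± 0.32 was 0.10 with slide as a block, -0.27 with normexp and -0.53 with quantile normalization.

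The sodium-coupled neutral amino acid transporters of Slc38 had the lowest family median, at -0.48, and 10 of their 14 probes were below 0, with 8 of 14 below 0 after median scaling and 6 with slide as a block. The rank was lost without WT 2, where Slc38 had -0.11 and Slc7 -0.27, and over genes, where Slc38 had -0.04 and Slc7 -0.14. It was also lost with the filter on dim probes, where Slc38 had -0.27 and Slc6 -0.35. The Slc38 median was 0.12 with slide as a block, above those of Slc1 at 0.0066 and Slc7 at 0.013. Of the 14 probes, 6 read Slc38a1. Slc38a2, the system A transporter that is induced when amino acids are short, had 4 probes with log2 fold changes from -0.12 to 0.02. Probe A_51_P458384 read 20708, 15703, 23535 and 21336 in WT and 19599, 26898, 15459, 22647 and 19386 in hNAG-1. Probe A_52_P459046 read between 1902 and 1994 in WT and between 1678 and 2369 in hNAG-1. For both, the WT range lay within that of hNAG-1.

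Slc38a1, also a system A transporter, was below 0 for each of its 6 probes, from -1.16 to -0.54, 2 of which were above background on all arrays, and WT 2 was the highest array on 4 of them. Probe A_51_P507053 read 732, 1803, 258 and 309 in WT and 210, 224, 485, 567 and 709 in hNAG-1. Probe A_51_P133005 read 400, 871, 150 and 178 in WT and 140, 123, 214, 292 and 299 in hNAG-1. In each, WT 2 was highest and WT 1 next among WT arrays, while WT 3 and WT 4 lay within the hNAG-1 range. Without WT 2 the log2 fold changes of these probes moved from -0.54 to 0.01 and from -0.63 to -0.14, and with slide as a block they were 0.44 and 0.07. The summed intensity of 10 lymphocyte markers was 10437, 66729, 2385 and 1905 in WT and 2405, 1475, 1756, 9890 and 3241 in hNAG-1, so that WT 2 and WT 1 were also highest there. Their part in the values of Slc38a1 was not tested.

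Probe A_52_P190992, the distant Slc38a1 probe, showed another order. It read 114, 147, 122 and 118 in WT and 65.7, 26.7, 33.7, 54.1 and 169 in hNAG-1, with a log2 fold change of -1.16 ± 0.47 (unadjusted limma p over all probes of 0.0363). The 4 hNAG-1 arrays of slide 2 were below every WT array and hNAG-1 5 was above them all. With slide as a block the value was 0.40. Its unadjusted p was over 0.05 without any of the 4 WT arrays, hNAG-1 2, hNAG-1 3 or hNAG-1 4, at -1.20 to -0.89. The probe was above background on 4 WT and 4 hNAG-1 arrays. Slc38a4, which prefers small neutral amino acids, had the same order for A_52_P12403, at 42.3, 44.1, 45.9 and 36.5 in WT and 27.5, 13.4, 12.9, 9.37 and 52.8 in hNAG-1. This probe was above background on 4 WT and 2 hNAG-1 arrays. Its log2 fold change of -1.16 ± 0.46 was 0.33 with slide as a block and, with an unadjusted p over 0.05, -1.16 to -0.91 without WT 1, WT 2, WT 3, hNAG-1 2, hNAG-1 3 or hNAG-1 4, and its other probe had -0.41 ± 0.39. Slc38a3, a glutamine transporter of system N, had 0.28 ± 0.24 and was the highest of the family above background on all arrays of a genotype.

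**Figure D4:**
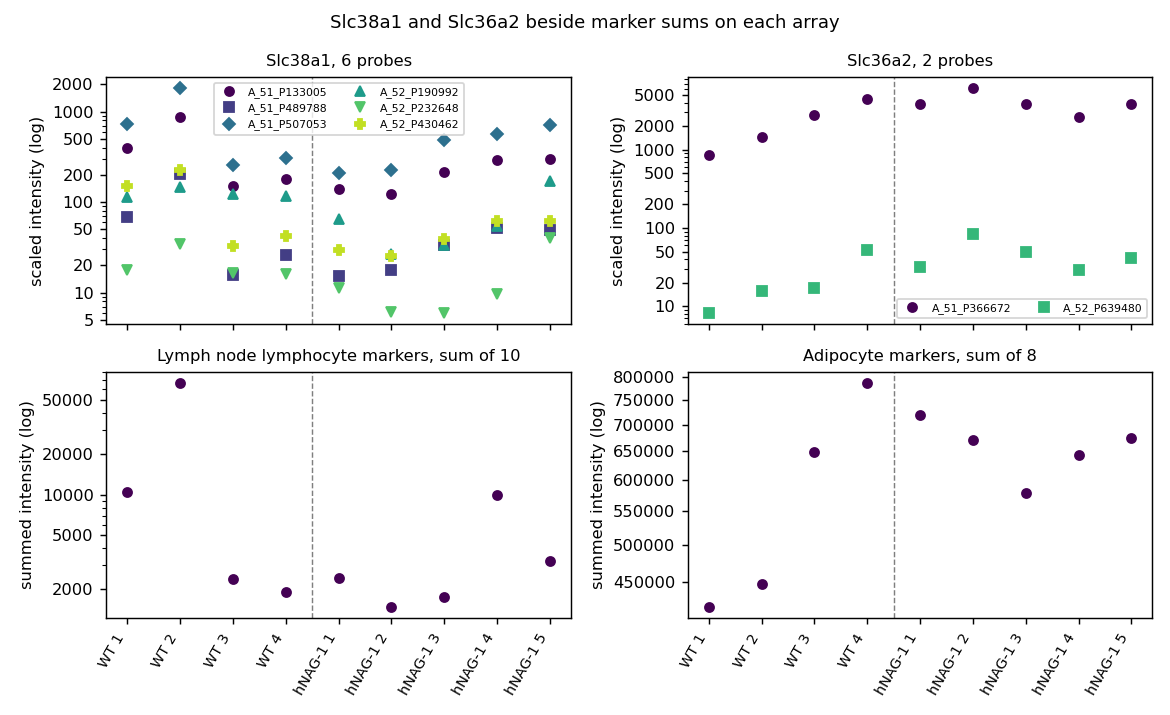
Scaled intensity (log axis) of the 6 Slc38a1 probes and the 2 Slc36a2 probes on each array, above the summed intensity (log axis) of 10 lymphocyte and 8 adipocyte markers, with the dashed line between WT and hNAG-1 arrays. WT 2 is highest for the lymphocyte sum and for 4 Slc38a1 probes, and WT 1 is lowest for the adipocyte sum and for both Slc36a2 probes.

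Slc36a2 gave the highest value of all members. It is a proton-coupled carrier of glycine, alanine and proline that is also known from the surface of brown and beige adipocytes. Probe A_51_P366672 read 869, 1436, 2742 and 4420 in WT and 3818, 6096, 3799, 2601 and 3873 in hNAG-1. WT 1 and WT 2 were below every hNAG-1 array, while WT 3 and WT 4 lay among them. The log2 fold change was 0.98 ± 0.45 (exact permutation p = 0.103). Probe A_52_P639480 read 8.26, 15.7, 17.3 and 52.6 in WT and 31.3, 84.6, 49.0, 29.0 and 41.2 in hNAG-1, and was above background on 1 WT array and 4 hNAG-1 arrays. WT 1, WT 2 and WT 3 were below every hNAG-1 array and WT 4 lay among them. Its log2 fold change of 1.23 ± 0.51 had an unadjusted limma p over all probes of 0.0397 and an exact permutation p of 0.0873. Both values stayed above 0 with slide as a block, at 0.58 and 0.76, and without any 1 of the arrays, where they ran from 0.59 to 1.37 and from 0.84 to 1.73. The second value was 0.77 with a floor of 20 and 0.44 with normexp. The unadjusted p of the second probe was over 0.05 without WT 1, WT 2, WT 3, hNAG-1 2, hNAG-1 3 or hNAG-1 5, and the value of the first was 0.59 without WT 1. The summed intensity of 8 adipocyte markers was 419713, 447629, 648336 and 787169 in WT and 719327, 669755, 577715, 642638 and 673939 in hNAG-1, with WT 1 and WT 2 lowest there too. The markers differed for WT 2, which lay below every hNAG-1 array for Fabp4, Cfd, Retn and Cidec. For Adipoq, Plin1, Lep and Lipe it lay within the hNAG-1 range. All 8 adipocyte markers had a log2 fold change above 0 (7 with no scaling, 7 without WT 2 and 6 with slide as a block), from 0.03 for Fabp4 to 1.00 for Retn, and none had an unadjusted p under 0.05. The part of fat content in the Slc36a2 values was not tested.

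The other Slc36 members had log2 fold changes between -0.65 and 0.21. Slc36a1, the lysosomal carrier, read 352, 367, 332 and 327 in WT and 315, 293, 272, 300 and 343 in hNAG-1 for A_51_P338563, a log2 fold change of -0.18 ± 0.13. The hNAG-1 arrays of slide 2 were below every WT array, and the value with slide as a block was 0.01. Slc36a4 had probes of opposite direction, at 0.21 ± 0.15 for A_51_P416910 (0.58 with slide as a block) and -0.52 ± 0.17 for A_52_P112021. The latter read 40.6, 41.7, 34.0 and 30.4 in WT and 25.6, 23.1, 22, 24.7 and 32.3 in hNAG-1, where hNAG-1 5 lay within the WT range and the other arrays below it. With slide as a block it was -0.12, and with normexp -0.065. The probe was above background on 4 WT and 2 hNAG-1 arrays. Slc36a3 had 3 probes between -0.65 and -0.26, which were 0.30 to 0.90 with slide as a block.

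Slc43a2, the facilitated carrier LAT4 for branched-chain and other large neutral amino acids, was also read differently by its probes, which lie 39893 bases apart in mm7. A_51_P296182 read 168, 321, 405 and 456 in WT and 541, 399, 1050, 349 and 668 in hNAG-1, with 3 hNAG-1 arrays above every WT array and a log2 fold change of 0.81 ± 0.39 (exact permutation p = 0.103), which was 0.51 without WT 1. A_52_P74368 read 145, 137, 137 and 151 in WT and 101, 116, 235, 94.5 and 134 in hNAG-1, which gave a log2 fold change of -0.15 ± 0.26. On both probes hNAG-1 3 was the highest array. Slc43a1, the related carrier LAT3, had 0.29 ± 0.23. Slc43a3, which is known as a nucleobase carrier, had 0.02 ± 0.29.

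In the Slc1 family, the neutral amino acid exchangers were above background on every array and had overlapping genotypes. Slc1a5, also named ASCT2, read 4811, 10260, 7494 and 14517 in WT and 11123, 16505, 14719, 8670 and 11418 in hNAG-1. WT 1 was below every other array, and the log2 fold change of 0.51 ± 0.32 was 0.14 with slide as a block and 0.23 without WT 1. Slc1a4, ASCT1, had 0.31 ± 0.37 and 0.15 ± 0.37 over its probes, which were -0.59 and -0.63 with slide as a block and 0.0047 and -0.18 without WT 2. Of the glutamate carriers, Slc1a3 had 0.42 ± 0.32 for A_51_P268697 (-0.36 with slide as a block) and -0.07 ± 0.25 for A_52_P378975, and a further probe near background gave -0.30 ± 0.34. Slc1a1 had 0.17 ± 0.36 and -0.00 ± 0.44. The 3 probes of Slc1a2 lay between -0.86 and -0.05 and, with slide as a block, between 0.0066 and 1.15, and 2 of them were above background on 2 arrays only. Slc1a6 had -0.49 ± 0.23, which was -0.06 with slide as a block and -0.18 with normexp. Slc1a7 had a log2 fold change of -1.62 ± 0.69, from values of 27.9, 63.4, 75.5 and 46.0 in WT and 32.2, 6.70, 9.36, 8.33 and 67.4 in hNAG-1. It was above background on 3 WT arrays and 2 hNAG-1 arrays, and the 3 lowest hNAG-1 values were not. The log2 fold change was 0.16 with slide as a block, -0.83 with a floor of 20 and -0.38 with normexp. Its unadjusted p was over 0.05 without WT 2, WT 3, WT 4, hNAG-1 2, hNAG-1 3 or hNAG-1 4, at -1.65 to -1.30.

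The Slc6 family, with 15 of 29 probes below 0 and a median of -0.01 that was 0.21 with median scaling, held the carriers of related compounds. Of these 29 probes, 7 were above background on no array, and all of those were above 0. The family median was 0.33 with slide as a block and -0.35 with the filter on dim probes, which a probe can pass through 1 genotype alone. Slc6a6, the taurine transporter, had 0.04 ± 0.34 and -0.01 ± 0.24 over its probes, which were -0.79 and -0.56 with slide as a block. Slc6a8, the creatine transporter, read 2574, 1140, 2616 and 2469 in WT and 3478, 2879, 2363, 2328 and 1641 in hNAG-1, which gave a log2 fold change of 0.24 ± 0.31, with WT 2 below the other arrays. Slc6a9, a glycine transporter, had 0.06 ± 0.20. The value of Slc6a8 was -0.25 with slide as a block and -0.05 without WT 2. Slc6a14, which carries neutral and cationic amino acids, was above background on 4 WT and 4 hNAG-1 arrays for A_51_P136188, at -0.35 ± 0.24 (0.33 with slide as a block), and on no array for its other probe. Slc6a17, a carrier of synaptic vesicles, had the lowest value of the family among probes above background in all arrays of a genotype, -1.04 ± 0.51, which was 0.47 with slide as a block. Another of its probes had -0.33 ± 0.27, and the other was above background on no array.

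Slc6a13, a carrier of GABA and taurine, was the called member above background on all 9 arrays. A_52_P221824 read 58.8, 126, 108 and 110 in WT and 71.8, 53.7, 72.0, 50.5 and 75.5 in hNAG-1. WT 1 lay within the hNAG-1 range and the other WT arrays were above it. The log2 fold change was -0.60 ± 0.25 (unadjusted limma p over all probes of 0.0376, exact permutation p = 0.0556), and it was -0.60 with slide as a block, -0.29 with normexp and -0.38 with quantile normalization. Its other probe, which starts 20 bases away and so overlaps it, had -0.79 ± 0.39 and -0.57 with the block. Without any 1 array the first value was between -0.84 and -0.48, and its unadjusted p was over 0.05 without WT 2, WT 3, WT 4, hNAG-1 2 or hNAG-1 4, at -0.55 to -0.48.

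Probes of 1 gene often did not give 1 direction. Of the 26 genes with several probes, 14 had all of them on the same side of 0. Among the 10 genes with at least 2 probes above background on all arrays, 4 did (Slc1a4, Slc3a2, Slc6a13 and Slc38a1). Of the other 6, all probes of Slc38a2, Slc6a6 and Slc1a1 lay within 0.17 of each other on the log2 scale, while those of Slc7a6, Slc1a3 and Slc43a2 spanned 0.46, 0.72 and 0.96. The spans of Slc7a6 and Slc1a3 each include a probe not above background on all arrays. Their probes above background on all arrays had -0.15 and 0.15 for Slc7a6, and 0.42 and -0.07 for Slc1a3.

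A further 4 gene groups around amino acid supply were read for comparison, with the brightest probe of each gene. None of their genes had an adjusted p under 0.05 by limma, and their calls at an unadjusted p stand beside 1.15% of all probes called higher and 4.45% called lower. Of 32 enzymes of amino acid synthesis and breakdown, 27 were above 0, with a median of 0.11, and 2 were called higher at an unadjusted p under 0.05, namely Pycr1 of proline synthesis at 0.44 ± 0.16 and Bcat2 of branched-chain breakdown at 0.43 ± 0.17. Asns, the asparagine synthetase that responds to amino acid shortage, had 0.11 ± 0.17. All 20 cytosolic aminoacyl-tRNA synthetases were above 0, from 0.03 to 0.41 with a median of 0.19, and 1 of them, Vars, was called higher. WT 2 had the lowest summed intensity of the synthetases, 117195 beside 161429 to 168809 in the other WT arrays and 160645 to 188778 in hNAG-1. Without WT 2, 14 of the 20 were above 0 with a median of 0.09, and 17 of the 32 enzymes with a median of 0.03. With slide as a block, 14 of the 20 synthetases and 23 of the 32 enzymes were above 0, and with no scaling 14 and 14. Of the 92 genes in the 4 groups, 4 had genotypes that did not overlap (4.35%, beside 1.35% of all probes), namely Asl, Bcat2 and Kars, higher in hNAG-1, and Rragd, lower. Counted against the median of all probes instead of 0, 20 of the 20 synthetases and 27 of the 32 enzymes were above it. Scaling by a constant moves that median and the genes alike, so these 2 counts do not change with it.

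In the pathway by which mTORC1 senses amino acids, 17 of 22 genes were above 0 (10 with no scaling) with a median of 0.11, and 1 was called lower. This was Rragd, a Rag GTPase of the lysosome, which read 230 in WT and 126 in hNAG-1 on average. Its log2 fold change of -0.89 ± 0.26 was -0.53 with slide as a block. Mtor itself had 0.22 ± 0.14. Of 18 other amino acid and peptide transporters, 8 were above 0 (14 with median scaling). Among these 8, Slc15a1 and Slc17a7 were above background on no array. Of the 18, 3 were called lower. Slc32a1 and Slc17a6, vesicle carriers of GABA and glutamate, had -2.50 ± 0.64 and -2.51 ± 0.91, which were -1.32 and -1.65 with a floor of 20, and were above background on 4 and 6 of 9 arrays. The other, Slc25a18, a mitochondrial glutamate carrier, had -0.87 ± 0.34. Slc32a1 had -1.45, Slc17a6 0.65 and Slc25a18 0.30 with slide as a block.

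**Figure D5:**
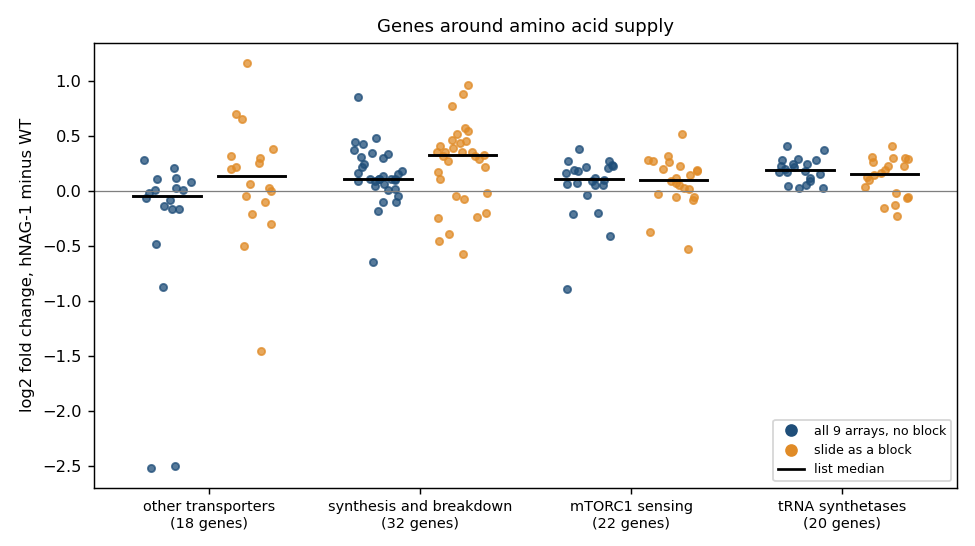
Log2 fold change of hNAG-1 minus WT (y axis) for the genes of 4 groups around amino acid supply (x axis), over all arrays without a block (blue) and with slide as a block (orange), with black lines at the medians. All 20 synthetases lie above 0 without the block and 14 with it.

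Markers of the cell types in a gland moved with single mice. The 12 markers of alveolar and luminal epithelium, with the casein genes and Wap among them, were above background on all arrays, and 11 were above 0 (3 with no scaling) with a median of 0.11. Their summed intensity was lowest in WT 2, at 1534280, with 2162100 to 2809640 in the other WT arrays and 1987590 to 2889550 in hNAG-1. Without WT 2, 3 of the 12 were above 0. Wap was saturated on 2 arrays. All 10 lymphocyte markers were below 0 (9 with median scaling), and 8 of them were above background on every array. Of the 5 skeletal muscle markers, all were below 0, and their sum ran from 3851 to 87574 in WT and from 2539 to 27294 in hNAG-1. All 6 myoepithelial markers were above 0, with a sum of 77315 in WT 2, 135084 to 162298 in the other WT arrays and 140205 to 177158 in hNAG-1. All 5 endothelial markers (4 with no scaling, 1 with slide as a block) and 1 of 6 macrophage markers (4 with median scaling) were above 0. The macrophage sum ran from 60444 to 146873 in WT and from 59749 to 203283 in hNAG-1. No marker gene was above background on 0 arrays. The part of cell composition in the transporter values was not tested.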

How the data were processed

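RNA of mammary gland number 4 was measured on 9 arrays, 4 WT and 5 hNAG-1, grouped by sample titles. The authors deposited the scanner output of the 1-color Agilent whole mouse genome arrays (Feature Extraction version 9.5 per the labels, 9.5.3.1 per the file headers), and the processed signal used here is an intensity per feature with background subtracted, without scaling between arrays. The deposited flags for signals well above background, saturation and outliers were used as given. The deposited series table held the same intensity values. The paper's methods name ANOVA, without listing its factors, and OmicSoft Array Studio, with thresholds of 0.05 on p, 1.5 on fold and 65 on intensity. They name no normalization.

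Control features were left out and each array was divided by the 75th percentile of its 43379 other features and multiplied by the geometric mean of the 9 percentiles. The features of each probe were then averaged before log2 was taken. Genotypes were compared over all 41174 probes with lmFit and eBayes of limma version 3.58.1 in R version 4.3.3, two-sided and with no covariate. The Benjamini-Hochberg adjustment ran over all of these probes. For single probes, the exact permutation test enumerated the 126 splits of the arrays. Depth does not apply to arrays. The lowest scaled intensity well above background lay between 14.4 and 31.7 by array. The fits were tested on simulated data.

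The members, gene lists and the rule for named genes were chosen with earlier results of these data known. Named were all probes of transporters with known roles in the gland or in amino acid supply, every other member with an unadjusted p under 0.05 or genotypes that did not overlap, and the highest and lowest log2 fold change of each family among probes above background in all arrays of a genotype. This gave 61 probes of 34 genes. Gene names are those of the array's design, and RefSeq (GRCm38.p6) held the accession of 77 of the 95 probes. In the lists, the brightest probe stood for a gene, and Lamtor4 was not matched. The alternatives concerned the background (normexp, offset 50), the scaling (quantiles, the median, or none), dim values (a floor of 20, or a filter), the test (the methods' test, or eBayes with trend and robust fitting), the slide (a fixed block, a random block, or slide 3 by itself), a replicate block, the series table, the mean over a gene's probes and each mouse left out in turn. Leaving out outlier flags was added after the data were seen. The mice are separate animals with 1 array each. Some single results are not reported here.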

Additional observations from a re-analysis of the deposited data

Results flagged for a closer look

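Among the named probes, 11 of 122 groups held an array that stood apart from its genotype by Dixon's test on log2 values (9.02%), where chance flags about 5%. WT 2 was the array in 6 of them. It read 1140 for Slc6a8 (other WT arrays 2469 to 2616), 106 for Slc7a1 (157 to 164), 2322 for Slc7a5 (4041 to 4431) and 748 for Slc38a3 (1220 to 1300), each time lowest. It was highest at 34.8 for Slc38a1 probe A_52_P232648 (15.9 to 17.8) and at 303 for Slc38a2 probe A_51_P199314 (258 to 264). WT 2 also had the highest sum of lymphocyte markers and the lowest sum of epithelial markers, and their part was not tested. Slc7a6 probe A_52_P462071 was highest in WT 3 at 547 (378 to 392), and Slc43a1 was lowest in WT 1 at 223 (411 to 424). In hNAG-1, Slc7a11 probe A_52_P298824 was highest in hNAG-1 5 at 26.6 (4.37 to 6.88), its probe A_52_P368057 was lowest in hNAG-1 2 at 16.9 (23.9 to 26.7), and Slc1a2 probe A_51_P477875 was lowest in hNAG-1 3 at 26.5 (45.8 to 52.6). Without WT 2, Slc7a5 had a log2 fold change of -0.20 and Slc38a3 had 0.10.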

How the results depend on the processing

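No transporter probe had an adjusted p under 0.05 in any fit, with a lowest adjusted p of 0.0562 (without hNAG-1 5). The number with an unadjusted p under 0.05, 10 of 95, was 5 with normexp background correction, with a floor of 20 and with the methods' test (a linear model without moderation of the variance), beside 2.57%, 4.86% and 4.82% of all probes. It was 4 with slide as a fixed block (7.61%), 6 with slide as a random block (3.58%), 6 over genes (5.48%) and 4 to 25 without any 1 mouse (2.82% to 14.4%). With the filter on dim probes it was 6 (7.19%), of which 5 passed the filter through WT alone, where they were higher, so this count supports nothing. The number also past the fold and intensity limits of the methods, 4, was 2 with quantile normalization (1.48% of all probes), 1 with the floor (1.42%), 2 with the dim filter (3.55%), 0 with the methods' test (1.22%), with slide as a fixed block (1.83%) and on slide 3 alone (2.72%), 1 with slide as a random block (1.38%) and 0 to 10 without any 1 mouse (0.998% to 6.53%). The median log2 fold change of -0.12 was 0.032 with normexp, 0.10 with median scaling, -0.27 with no scaling, 0.14 with slide as a fixed block and on slide 3 alone, and -0.18 to -0.06 without any 1 mouse. With slide as a fixed block and on slide 3 alone, Slc1a7 was 0.16, Slc7a9 0.10, Slc7a11 A_52_P298824 0.15, Slc38a1 A_52_P190992 0.40 and Slc38a4 A_52_P12403 0.33. Slc7a11 A_52_P663446, above background on no array, was 0.038 with normexp. Beyond what the construction of each fit sets, the cause was not tested.

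Mice 1 to 4 of both genotypes share only numbers. Same-numbered arrays deviated from their genotype means with correlations of 0.08, -0.17, -0.06 and -0.21, and 1 array, WT 1, correlated best with its own number. A fit with a replicate block, in which hNAG-1 5 has no partner and drops out, had 23 members with an unadjusted p under 0.05, all lower, and 9 past the fold and intensity limits, where 13.2% and 6.25% of all probes were.

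Intensities close to background limit the dim probes, which hold all 10 called members. The slide block rests on 1 hNAG-1 array, and WT 1 is alone on its slide. All 10 called members kept their direction in each setting that left out 1 mouse, but they were called on these same arrays, so this count supports nothing. With slide as a fixed block 5 of the 10 changed sign, and with normexp 1 did.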
